A study of Mus musculus with 12 samples.

Results

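ATF4, serine and one-carbon genes are here 10 mouse genes: Atf4 and Ddit3, which encode transcription factors of the integrated stress response, Asns and Trib3, which ATF4 switches on, Phgdh, Psat1 and Psph of serine synthesis, and Shmt1, Shmt2 and Mthfd2 of one-carbon metabolism. They were chosen by symbol with earlier results of these data known, so the counts below are no independent test of them. They were found through the gene symbols of the array annotation. All 10 were among the 18193 genes named on the Affymetrix Mouse Genome 430 2.0 design, and 9 were among the 14807 named on the Mouse Exon 1.0 ST design. Phgdh had no exon feature with a single symbol, so 9 of the 13356 genes shared by the designs are members.

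RNA came from PUER cells, mouse myeloid progenitors grown as a line, without PU.1 of their own, that make a fusion of PU.1 with the ligand-binding domain of the estrogen receptor. The compound 4-hydroxytamoxifen (OHT) activates this fusion protein. Cells of the 24 h groups had been moved to medium with 100 nM OHT, while those of the 0 h groups had none, and for the 0 h groups the labels name no vehicle. Both were grown in IMDM with serum, glutamine, beta-mercaptoethanol, puromycin and 5 ng/ml IL-3, so all groups share the absence of normal PU.1, the fusion and the cytokine. Each of the 4 groups (2 times on 2 designs) had 3 arrays, 12 in all; nothing in the labels says that these came from separate cultures, so each p-value rests on array-to-array spread alone, and that spread may be technical.

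Cells that are short of amino acids, or whose secretory pathway is under stress, phosphorylate the translation factor eIF2alpha. General protein synthesis then slows while the ATF4 protein is made more, and with C/EBP partners ATF4 switches on genes for amino acid import, amino acid synthesis and tRNA charging. Because this control acts largely on translation, the level of Atf4 RNA is not a measure of ATF4 protein. Serine made from a glycolytic intermediate by PHGDH, PSAT1 and PSPH is split by SHMT enzymes into glycine and a one-carbon unit on folate, which dividing cells, such as progenitors growing in IL-3, use for purines and thymidylate.

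The control regions of 3 of these genes are shown because they hold the letters of a C/EBP-ATF element, the kind of sequence through which ATF4 acts. RefSeq promoter windows (assembly GRCm38.p6, 250 bases before to 50 after an annotated start) were found for all 10 genes, 11 windows in all since Psat1 has 2. The 250 bases before the start are printed 5′ to 3′ on the strand of the gene, with matches to the element in capitals. They lie at chr6:7693210-7693459 for Asns, chr2:152344061-152344310 for Trib3 and chr19:15925060-15925309 for Psat1, each on the minus strand.
Asns: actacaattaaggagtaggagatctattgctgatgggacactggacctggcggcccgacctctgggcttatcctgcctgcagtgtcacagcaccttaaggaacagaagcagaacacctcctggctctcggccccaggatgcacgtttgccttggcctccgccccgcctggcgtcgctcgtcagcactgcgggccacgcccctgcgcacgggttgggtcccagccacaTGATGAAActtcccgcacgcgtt
Trib3: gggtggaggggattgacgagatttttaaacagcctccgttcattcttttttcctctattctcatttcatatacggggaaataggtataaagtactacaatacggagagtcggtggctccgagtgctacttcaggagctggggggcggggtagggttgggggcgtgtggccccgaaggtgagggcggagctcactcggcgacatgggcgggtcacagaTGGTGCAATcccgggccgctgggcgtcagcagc
Psat1: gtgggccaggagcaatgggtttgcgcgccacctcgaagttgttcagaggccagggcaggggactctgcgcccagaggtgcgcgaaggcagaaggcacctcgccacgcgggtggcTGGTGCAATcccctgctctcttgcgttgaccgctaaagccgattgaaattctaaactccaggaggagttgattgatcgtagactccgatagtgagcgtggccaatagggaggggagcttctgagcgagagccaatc
In Asns the capitals mark TGATGAAA, at positions -23 to -16, counted back from the start as -1. It was found with the core letters TGATGNAA, searched on both strands, which 1304 of all 32851 windows (3.97%) hold. Of the other members only Trib3 held this core, on the opposite strand at bases 15 to 22 after the start and therefore outside the printed stretch. The capitals in Trib3 and Psat1 mark TGGTGCAAT, at -33 to -25 and at -136 to -128; these letters were searched after the sequences had been seen, and 29 of the 32851 windows (0.0883%) hold them on either strand. The PU.1 site core GAGGAA lay in 1 member window, that of Trib3, on the opposite strand at -201 to -196, and is present in 28.3% of all windows. The E-box CACGTG, a palindrome, lay in none of the members' windows and in 7.15% of all. None of the motifs searched overlapped another in these windows, and a match or its absence in these 300 bases says nothing of whether a factor binds.

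**Figure D1:**
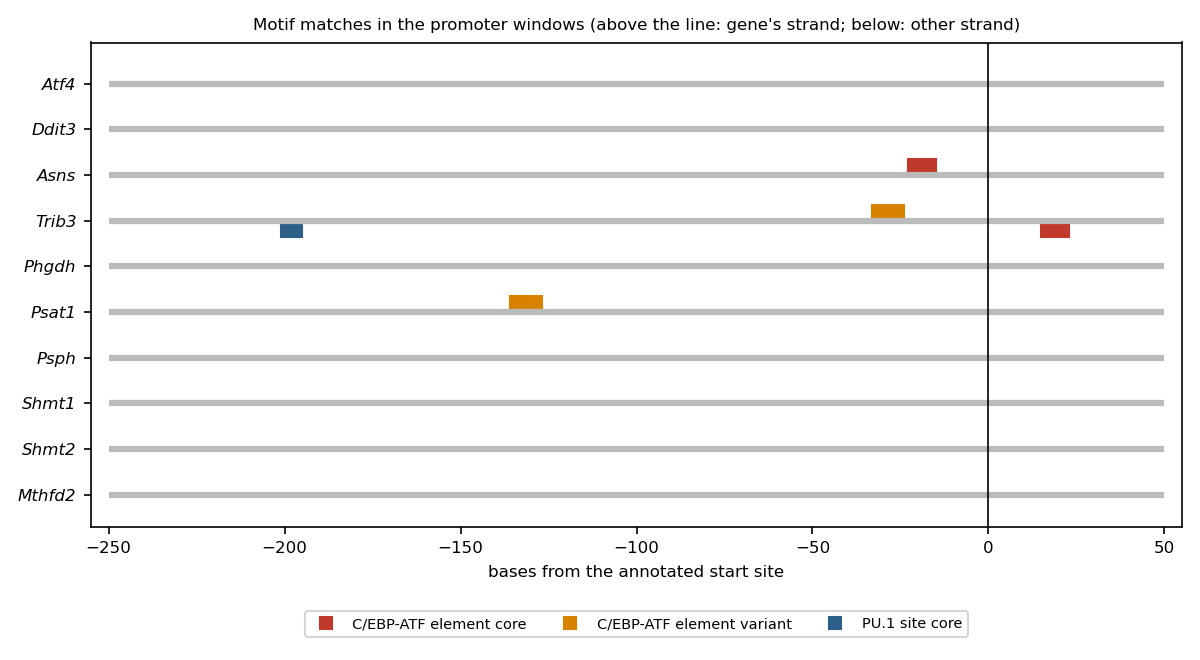
Positions of motif matches in the promoter windows of the 10 genes; the x axis gives bases from the annotated start, the boxes above a line are on the gene's strand and those below on the other. Both Psat1 windows are drawn on 1 line; Asns, Trib3 and Psat1 hold a C/EBP-ATF core or variant, and Trib3 alone holds the PU.1 core.

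The designs' labels run against each other. Across the 13356 shared genes the change (24 h minus 0 h) on one design correlated with that on the other at r = -0.861 (Pearson) and -0.723 (Spearman), where genes are not independent replicates. Macrophage markers, fixed as 12 genes, were called higher in the 430 arrays labelled 24 h for 12 of 12, but called lower in the exon arrays labelled 24 h for 10 of 10 tested. Of all genes, 26.0% were called higher on the 430 design and 10.8% lower on the exon design. Directions below follow the labels. If the exon labels were exchanged, each exon change would have the same size and the other sign, and which design carries the direction of the culture is not settled here. The RNA of the fusion was not used to check the labels. OHT acts on the fusion protein, and whether the Spi1 and Esr1 features read the fusion RNA was not tested. Spi1, the PU.1 gene, had a log2 level of 7.36 ± 0.117 in the 430 arrays labelled 24 h and 8.05 ± 0.166 in those labelled 0 h (SD, n = 3 each; limma adjusted p = 0.000468), and 12.12 ± 0.148 and 11.85 ± 0.031 in the exon arrays labelled 24 h and 0 h (limma adjusted p = 0.116). Esr1, the source of the ligand-binding domain, changed by -2.07 ± 0.188 on the 430 arrays and showed 0.25 ± 0.0808 on the exon arrays (SE, limma adjusted p = 2.47e-05 and 0.0713). Arrays of 1 group correlated at r = 0.997 to 0.998 on the 430 design and 0.985 to 0.989 on the exon design, so exon values carry the wider error.

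On the 430 arrays 9 of the 10 genes were called lower in the arrays labelled 24 h, none higher (also 0 at an unadjusted limma p under 0.05), and Ddit3 was not called. A call is an adjusted p under 0.05 from limma, with Benjamini-Hochberg adjustment over all features, and a gene is represented by its brightest feature with a single symbol. Of all 18193 genes on the design, 26.1% were called lower and 26.0% higher, and 5.41% were called lower by at least 1 log2 unit, as 6 of the 10 members were. The members' median log2 change was -1.18, beside 0.06 over all genes. In such bulk RNA, fewer cells that express a gene and less RNA per cell cannot be told apart. On the exon arrays 8 of 9 were called higher in the arrays labelled 24 h, none lower (1, Ddit3, at an unadjusted p under 0.05), with a median of 1.02 beside 0.01 over all genes; there 19.3% of all 14807 genes were called higher, 10.8% lower, and 4.92% higher by at least 1 log2 unit, as 5 of the 9 members were. The 3 arrays labelled 24 h did not overlap the 3 labelled 0 h for 9 of 10 members on the 430 design, in the lower direction, in which 29.0% of all genes do not overlap. For 9 of 9 members the groups did not overlap on the exon design, 8 of them in the higher direction (27.6% of all genes) and Ddit3 in the lower direction (19.6%). For any such gene alone the exact two-sided permutation test gives p = 0.1, the smallest that 3 arrays against 3 allow.

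**Figure D2:**
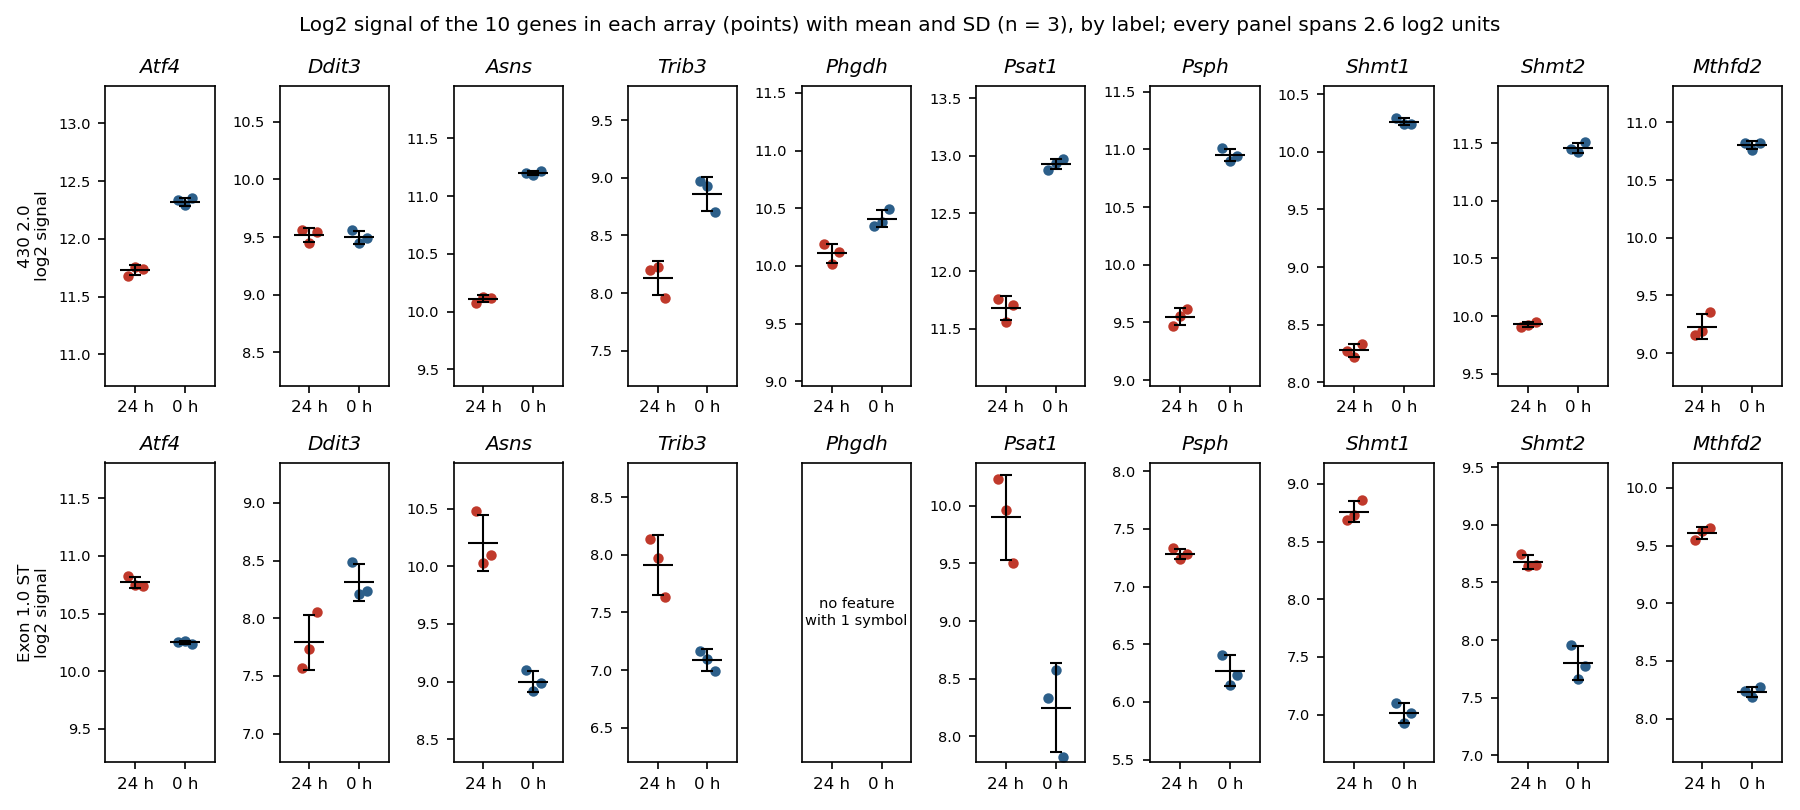
Deposited log2 level of each gene in every array, by its brightest single-symbol feature. The 430 arrays are above and the exon arrays below, with arrays labelled 24 h left of those labelled 0 h. Horizontal marks are group means and capped bars the SD (n = 3). The 24 h points lie below the 0 h points for 9 genes on the 430 design and above them for 8 genes on the exon design; Ddit3 overlaps on the 430 design and lies lower on the exon design.

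Atf4 encodes the factor itself. Its brightest 430 probe set read 11.68, 11.76 and 11.74 log2 units in the arrays labelled 24 h, against 12.34, 12.29 and 12.35 in those labelled 0 h, a change of -0.60 ± 0.0618 (SE, limma adjusted p = 5.55e-05). The groups lay 0.53 log2 units apart, against SDs of 0.04 and 0.0336 within them. The other 2 Atf4 probe sets did not pass the test, with changes of -0.12 (adjusted p = 0.233) and 0.07 (adjusted p = 0.449), so that the mean of all 3 changed by only -0.22 (adjusted p = 0.0111). On the exon arrays Atf4 read 10.83, 10.75 and 10.74 in those labelled 24 h, against 10.25, 10.26 and 10.24 in those labelled 0 h. That is a change of 0.52 ± 0.0749 (SE, limma adjusted p = 0.00412), again without overlap.

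Ddit3 encodes CHOP, a factor that ATF4 induces under lasting stress and that promotes cell death. It was the 1 member called on neither design. Its brightest 430 probe set read 9.56, 9.45 and 9.54 in the arrays labelled 24 h, against 9.56, 9.45 and 9.49 in those labelled 0 h, a difference of 0.02 ± 0.067 (SE, limma adjusted p = 0.86). The groups overlapped throughout, and the sign turned (-0.05) when array medians were removed. Its dimmer probe set read 7.01, 6.86 and 6.95 at 24 h, against 7.38, 7.22 and 7.32 at 0 h, and was called lower (-0.37, limma adjusted p = 0.0029). The exon feature read 7.57, 7.73 and 8.05 in the arrays labelled 24 h, against 8.49, 8.21 and 8.24 in those labelled 0 h. Here the 24 h label was the lower, by -0.53 ± 0.153 (SE), opposite in sign to the other 8 members, but the test was narrowly missed (limma adjusted p = 0.0529). Array 3 labelled 24 h lay closest to the 0 h arrays, and without it the change was -0.66 (limma adjusted p = 0.0236).

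Asns encodes asparagine synthetase, a standard readout of ATF4 activity. On the 430 arrays it read 10.07, 10.13 and 10.12 in those labelled 24 h, against 11.20, 11.18 and 11.22 in those labelled 0 h. Its change was -1.09 ± 0.0601 (SE, limma adjusted p = 1.12e-06), with a gap of 1.05 between the groups, and its other probe set changed by -0.76. The exon arrays labelled 24 h read 10.48, 10.03 and 10.10 for Asns, against 9.10, 8.92 and 8.99 in those labelled 0 h, a change of 1.20 ± 0.141 (SE, limma adjusted p = 0.00204). Exon array 1 labelled 24 h was the highest, and it was also the highest of its group for Atf4, Trib3, Psat1, Psph and Shmt2, 6 of the 9 members in all.

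Trib3 encodes a pseudokinase that ATF4 and CHOP induce and that feeds back on them. The 430 arrays labelled 24 h read 8.20, 8.23 and 7.96, against 8.97, 8.93 and 8.70 in those labelled 0 h, for a change of -0.73 ± 0.10 (SE, limma adjusted p = 0.000321). Array 3 was the lowest in both groups, and the other Trib3 probe set changed more, by -1.29 (limma adjusted p = 5.05e-06). On the exon arrays Trib3 read 8.14, 7.97 and 7.63 in those labelled 24 h, against 7.17, 7.10 and 6.99 in those labelled 0 h. The change was 0.83 ± 0.148 (SE, limma adjusted p = 0.00943), and the groups did not overlap.

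Among the enzymes of serine synthesis, Phgdh, which oxidises 3-phosphoglycerate in the first step, moved least. It read 10.19, 10.02 and 10.12 in the 430 arrays labelled 24 h, against 10.35, 10.38 and 10.49 in those labelled 0 h. The change of -0.30 ± 0.0728 (SE, limma adjusted p = 0.00968) was past the threshold, but after quantile normalization it was -0.19 and no longer called (limma adjusted p = 0.0784). Of its other single-symbol probe sets 2 were called lower (-0.21 and -0.28) and 1 was not (-0.08, limma adjusted p = 0.508). A further 2 probe sets list Phgdh together with a predicted gene, Gm8096 or Gm6756, and so cannot be given to Phgdh alone. They were called lower too, by -0.46 and -0.23. The single symbol of the others comes from the array annotation, and whether they read Phgdh alone was not tested.

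Psat1, the aminotransferase of the second step, read 11.76, 11.56 and 11.71 in the 430 arrays labelled 24 h, against 12.88, 12.94 and 12.97 in those labelled 0 h. It changed by -1.26 ± 0.0739 (SE, limma adjusted p = 1.67e-06), and its second probe set by -1.01. On the exon design Psat1 had the widest spread of all members: 10.23, 9.96 and 9.50 at the 24 h label, against 8.33, 8.58 and 7.82 at the 0 h label. The change of 1.65 ± 0.261 (SE, limma adjusted p = 0.00598) was still larger than that spread, and the groups lay 0.92 apart.

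Psph, the phosphatase that releases serine, is read by 1 probe set. It had 9.47, 9.56 and 9.62 log2 units in the 430 arrays labelled 24 h, against 11.01, 10.90 and 10.94 in those labelled 0 h, a change of -1.40 ± 0.0684 (SE, limma adjusted p = 5.41e-07). In the exon arrays it had 7.33, 7.24 and 7.28 at the 24 h label, against 6.41, 6.15 and 6.23 at the 0 h label, a change of 1.02 ± 0.0968 (SE, limma adjusted p = 0.000962). The groups did not overlap on either design.

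Shmt1, the cytosolic serine hydroxymethyltransferase, had the largest change of the 10 genes on the 430 design and of the 9 on the exon design. The 430 arrays labelled 24 h read 8.27, 8.22 and 8.33, against 10.29, 10.24 and 10.24 in those labelled 0 h, which is -1.98 ± 0.0637 (SE, limma adjusted p = 4.77e-08), or 0.253 times the 0 h level. Its 3 other probe sets were all called lower, by -2.05, -1.64 and -0.42, so the size differs between probe sets. On the exon arrays it read 8.69, 8.73 and 8.86 at the 24 h label, against 7.10, 6.93 and 7.01 at the 0 h label. This was 1.75 ± 0.0918 (SE, limma adjusted p = 0.000132), 3.36 times the level at the 0 h label; 0.857% of all genes changed further down on the 430 arrays and 0.831% further up on the exon arrays.

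Shmt2 encodes the mitochondrial enzyme that supplies most one-carbon units in dividing cells. It read 9.91, 9.92 and 9.95 in the 430 arrays labelled 24 h, against 11.45, 11.42 and 11.51 in those labelled 0 h, a change of -1.53 ± 0.0613 (SE, limma adjusted p = 1.67e-07). The other 3 probe sets were also called lower, by -1.52, -1.25 and -0.92. On the exon arrays the values were 8.75, 8.64 and 8.65 at the 24 h label, against 7.96, 7.66 and 7.78 at the 0 h label. The exon change was 0.88 ± 0.104 (SE, limma adjusted p = 0.00204), and on neither design did the groups overlap.

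Mthfd2, the mitochondrial folate dehydrogenase and cyclohydrolase that acts after SHMT2, read 9.16, 9.19 and 9.36 in the 430 arrays labelled 24 h, against 10.82, 10.76 and 10.82 in those labelled 0 h. The change was -1.57 ± 0.0738 (SE, limma adjusted p = 4.32e-07), and -1.13 on its other probe set. Exon arrays labelled 24 h read 9.55, 9.63 and 9.65, against 8.24, 8.19 and 8.27 in those labelled 0 h, a change of 1.38 ± 0.0779 (SE, limma adjusted p = 0.000177). Both groups were tight and the gap between them was 1.28 log2 units. Over all 26 single-symbol 430 probe sets of the 10 genes, 22 were called lower, 0 higher and 4 not called, beside 23.5% of all 45037 probe sets called lower and 22.3% called higher (limma, and 0 of the 26 higher at an unadjusted p under 0.05).

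**Figure D3:**
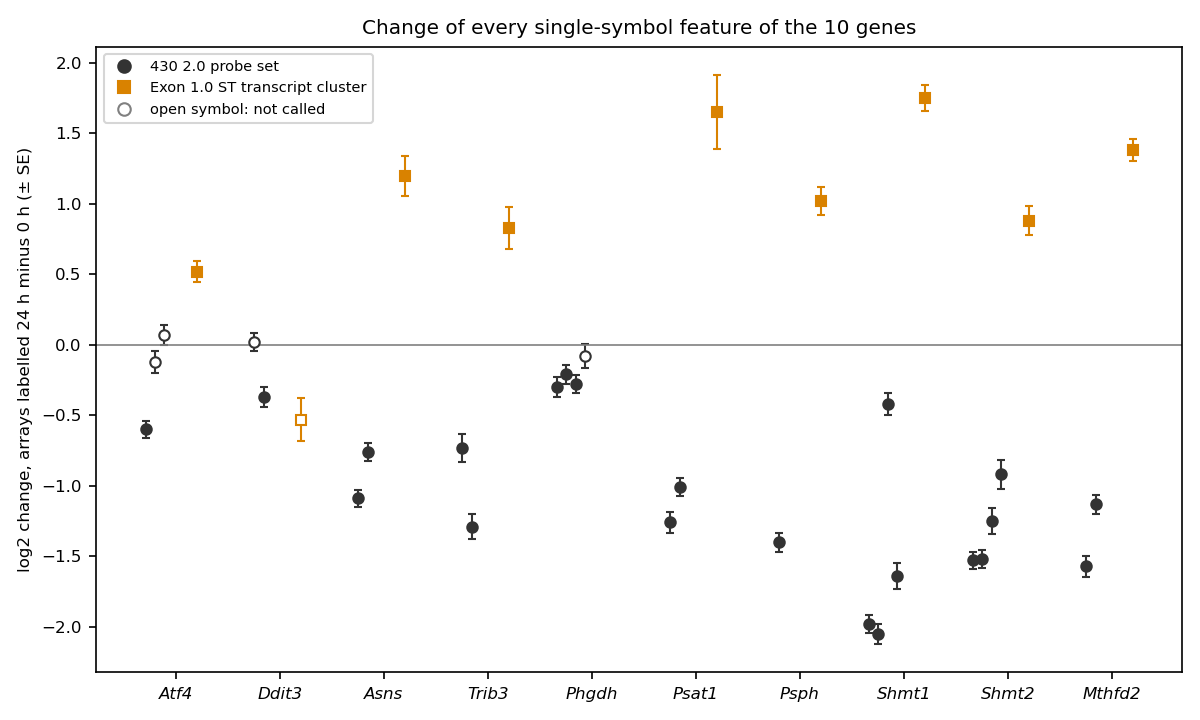
Log2 change, 24 h minus 0 h as labelled, of every single-symbol feature of the 10 genes with its standard error, on the 430 design and the exon design. The changes run from -2.05 to 0.07 on the 430 design and from -0.53 to 1.75 on the exon design, and Atf4 and Shmt1 show the probe sets that differ most from one another.

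The size of the change was compared between designs by fitting the 13356 shared genes of both together in limma and subtracting the exon change from the 430 change. With the labels as given and the brightest features the changes of all 9 members differed, from 0.54 for Ddit3 to -3.73 for Shmt1. Of all genes 58.0% differ so, since the labels of the designs run against each other. With gene means Ddit3 was not called (0.35, limma adjusted p = 0.0695) and Atf4 differed by -0.74. With the exon labels exchanged 3 of 9 still differed, beside 22.8% of all genes: Shmt2 by -0.65 (95% interval -0.89 to -0.41, adjusted p = 0.00127), Psph by -0.38 (-0.62 to -0.14, adjusted p = 0.0262) and Ddit3 by -0.51 (-0.85 to -0.17, adjusted p = 0.0308). For Shmt2 and Psph the 430 arrays gave the larger change; for Ddit3 the exon arrays did. The other 6 were not called, with differences of -0.07 for Atf4 (-0.27 to 0.12), 0.11 for Asns (-0.20 to 0.41), 0.10 for Trib3 (-0.28 to 0.47), 0.39 for Psat1 (-0.15 to 0.94), -0.24 for Shmt1 (-0.46 to -0.01, adjusted p = 0.124) and -0.19 for Mthfd2 (-0.41 to 0.03). These 6 intervals do not show equal changes: that of Psat1 allows a difference of nearly 1 log2 unit. The Atf4 value rests on the probe set used, since with the mean of all its probe sets the difference was 0.31 (limma adjusted p = 0.0197), and that of Shmt2 was then -0.42 (limma adjusted p = 0.0221). Psph was not called once exon values were rescaled to the 430 spread (-0.23, limma adjusted p = 0.211).

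**Figure D4:**
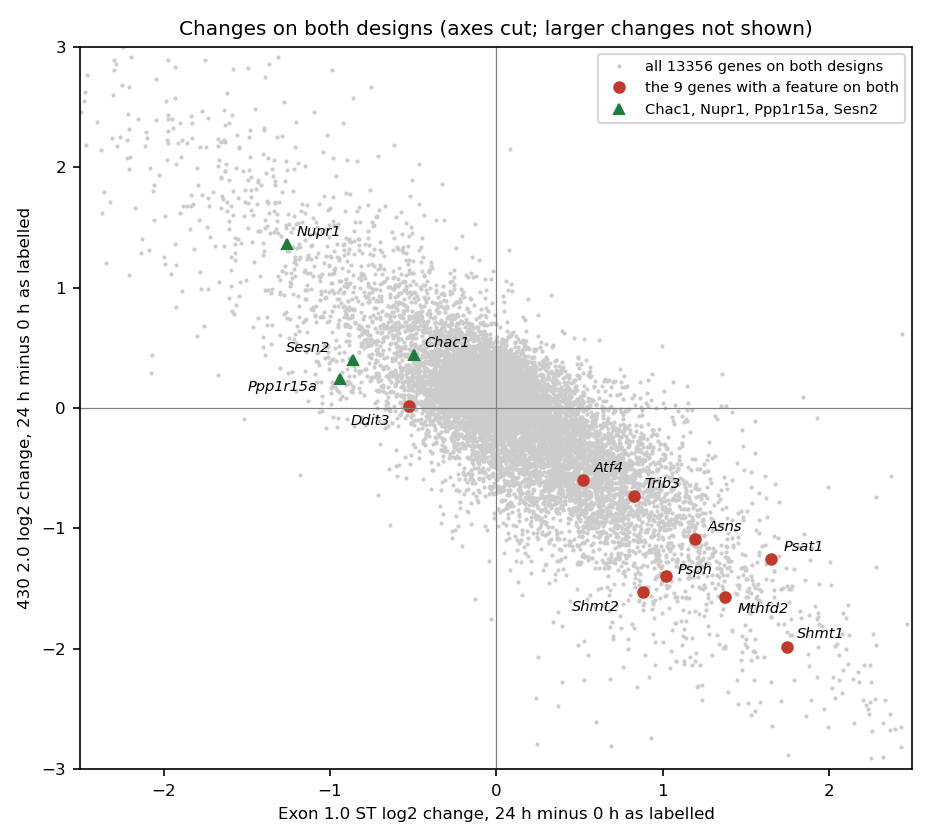
Log2 change on the 430 design (y) against the exon design (x), 24 h minus 0 h as labelled, for the 13356 shared genes (grey), the 9 members (red) and 4 other ATF4 targets chosen after their values were seen (green). Of the members, 8 lie at the lower right, lower on the 430 and higher on the exon design, while Ddit3 lies left of the vertical line near the 430 change of 0.02.

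Of the 9 shared members, 8 were called lower on the 430 arrays and higher on the exon arrays, as were 18.3% of all shared genes; 9.54% were called the other way round and 0.427% the same way on both. The wider ATF4 pathway was read from lists of genes with known roles. List counts here and below stand beside 26.1% of all genes called lower and 26.0% higher on the 430 arrays. On the exon arrays the shares are 19.3% higher and 10.8% lower. A list count near these shares says nothing particular of its list. Among further ATF4 targets 18 of 30 passed as lower and 5 as higher on the 430 arrays (median change -0.40), while 14 of 28 passed as higher and 6 as lower on the exon arrays (median 0.38). Amino acid transporters were among those called on both designs: Slc7a5, the large neutral amino acid carrier, changed by -2.02 ± 0.0713 on the 430 and 1.55 ± 0.0898 on the exon arrays (SE), Slc1a5, a glutamine carrier, by -1.85 and 1.42, and Slc7a11, the cystine carrier, by -1.57 and 1.67. The secreted glycoprotein gene Stc2 changed by -1.5 and 1.46.

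Not all ATF4 targets went this way. Chac1 (a glutathione-degrading enzyme), Nupr1 (a stress-induced chromatin protein), Ppp1r15a (the GADD34 subunit that directs eIF2alpha dephosphorylation) and Sesn2 (an inhibitor of mTORC1 signalling) were called higher in the 430 arrays labelled 24 h, by 0.44, 1.36, 0.24 and 0.40, and lower in the exon arrays labelled 24 h, by -0.49, -1.26, -0.94 and -0.86. They are 4 of the 5 targets called higher on the 430 design and 4 of the 6 called lower on the exon design; Cbs (0.41) completes the first group, and Jdp2 (-0.62) and Mknk2 (-0.44) the second. These 7 genes were singled out after their values were seen. Ppp1r15a and Cbs were no longer called on the 430 arrays under 5 and 7 of 12 alternative settings that keep the labels and require no minimum change (adjusted p up to 0.146 and 0.124), and Jdp2 and Mknk2 on the exon arrays under 4 of 12 each. Ddit3 shared the exon sign of that group without passing the test.

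Aminoacyl-tRNA synthetases, which charge tRNAs with amino acids, moved together: 12 of 12 were called lower in the 430 arrays labelled 24 h (median -0.65) and 9 of 9 tested were called higher in the exon arrays labelled 24 h (median 0.76). Yars, the tyrosine enzyme, changed by -1.31 ± 0.0753 on the 430 and 1.12 ± 0.15 on the exon arrays (SE), and Wars, the tryptophan enzyme, by -1.14 and 1.06. Tars and Mars1, for threonine and methionine, changed by -0.91 and -0.86 on the 430 arrays and by 0.76 and 0.93 on the exon arrays.

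For the eIF2alpha kinases, eIF2 and eIF2B subunits and their regulators, 10 of 16 were called lower and 2 higher on the 430 arrays (median -0.37), and 6 of 12 higher and 1 lower on the exon arrays (median 0.43). The eIF2B subunit genes Eif2b4 and Eif2b1 changed by -1.17 and -0.74 on the 430 arrays and by 0.93 and 0.82 on the exon arrays, and Eif2s2, the beta subunit of eIF2, by -0.32 and 1.48. The 2 called higher on the 430 arrays were Eif2ak4, the gene of the amino acid sensor GCN2 (0.47), and Impact, an inhibitor of GCN2. On the exon arrays Eif2ak4 was not called (-0.25, limma adjusted p = 0.0739). Impact had 9.40 ± 0.0381 log2 units in the 430 arrays labelled 24 h and 7.64 ± 0.127 in those labelled 0 h (SD, n = 3 each). Impact thus changed by 1.76 ± 0.0785 on the 430 arrays (SE, limma adjusted p = 3.07e-07) and by -1.65 ± 0.14 on the exon arrays (SE, limma adjusted p = 0.000662). With the mean of all 430 probe sets of a gene the changes were 0.79 for Impact and 0.30 for Eif2ak4. Of the other arms of the unfolded protein response 10 of 16 were called lower and 1 higher on the 430 arrays (median -0.48), and 9 of 15 higher and none lower on the exon arrays (median 0.71). Ern1, the sensor IRE1, changed by -1.31 and 1.15, Creld2 by -1.17 and 0.94, Dnajb9, a chaperone partner, by -0.59 and 1.29, and Xbp1, the factor that IRE1 splices, by -0.57 and 1.37. The mean of the 5 Ern1 probe sets on the 430 arrays changed by -0.53. Atf6, a further sensor, was the one called higher on the 430 arrays (0.23), a call lost under 7 of 12 alternatives (changes of -0.034 to 0.38).

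In the folate cycle around the SHMT and MTHFD enzymes 11 of 18 genes were called lower and 2 higher on the 430 arrays (median -0.56), and 8 of 15 higher and none lower on the exon arrays (median 0.51). Tyms, thymidylate synthase, changed by -2.0 ± 0.13 and 0.79 ± 0.116 (SE), Slc19a1, the reduced folate carrier, by -1.64 and 1.92, Gart, of purine synthesis, by -1.36 and 1.19, and Fpgs, which retains folates in cells, by -1.0 and 1.3. The 4 Tyms probe sets differed, and their mean changed by -0.66. Mthfs, which returns 5-formyl folate to the cycle, and Ggh, which trims folate chains, were called higher on the 430 arrays by 3.0 and 0.53. On the exon arrays Ggh was not called (0.16, limma adjusted p = 0.231), and Mthfs was not among the genes tested. Among genes that use or transport serine and glycine 7 of 14 were called lower and 2 higher on the 430 arrays (median -0.17), and 5 of 15 higher and 2 lower on the exon arrays (median 0.17). They included Sptlc1, of sphingolipid synthesis (-0.97 and 1.07), Alas1, of haem synthesis (-0.90 and 0.68), Sfxn1, the mitochondrial serine carrier (-0.71 and 1.24), and Dld, of the glycine cleavage system (-0.58, or -0.24 over the mean of its 430 probe sets, and 0.73). Srr, serine racemase, went the other way on both designs (0.44 and -0.45), as did Gnmt on the 430 arrays (0.35) and Gcat on the exon arrays (-0.29, a call lost under 7 of 12 alternatives). In the methionine cycle and polyamine genes 6 of 9 were called lower and 2 higher on the 430 arrays (median -0.23), and 3 of 6 higher and none lower on the exon arrays (median 0.26). Srm, spermidine synthase, changed by -2.43 ± 0.0794 and 1.24 ± 0.0807 (SE), and Ahcyl1 by -0.25 (-0.43 over the mean of its 430 probe sets) and 0.50; Mtr, methionine synthase, and Bhmt were called higher on the 430 arrays by 0.77 and 0.33, and the call of Bhmt was lost under 7 of 11 alternatives. The exon calls of Sfxn1 and Ahcyl1 were lost under 4 and 3 of 12.

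**Figure D5:**
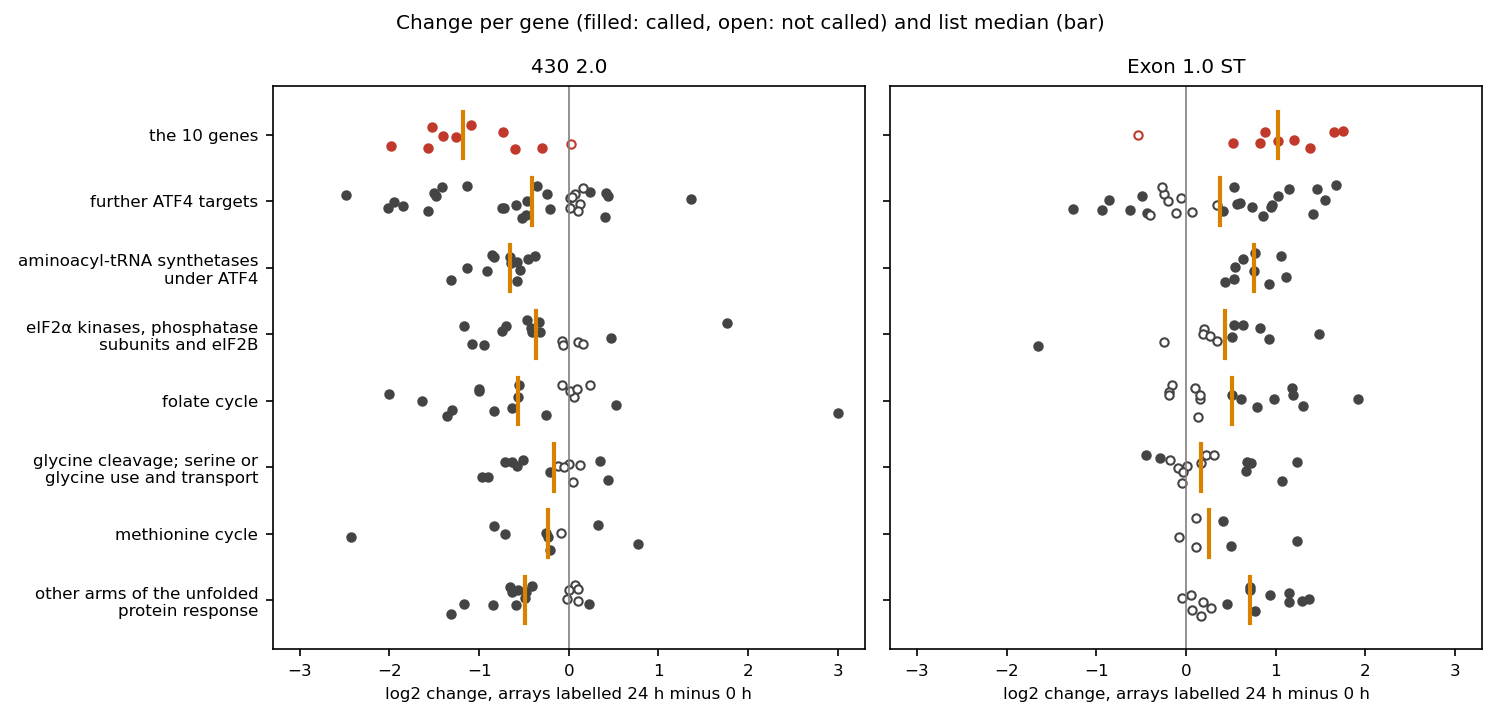
Log2 change, 24 h minus 0 h as labelled, of every gene of the members and of the 7 wider lists on each design, with the median of a list as a bar. The medians run from -1.18 (members) to -0.17 on the 430 design and from 0.17 to 1.02 (members) on the exon design.

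Marker lists differed in how they moved beside these genes. Over all genes, 26.1% were called lower and 26.0% higher on the 430 arrays, and 19.3% higher and 10.8% lower on the exon arrays. Macrophage markers had mean log2 levels per array of 10.88 to 10.91 in the 430 arrays labelled 24 h and 6.24 to 6.45 in those labelled 0 h, and 4.86 to 5.01 and 8.94 to 9.11 in the exon arrays labelled 24 h and 0 h. Of these, Ccr2, Tyrobp and Adgre1 changed by 7.60, 7.28 and 6.30 on the 430 arrays and by -6.11, -6.02 and -5.61 on the exon arrays. On both designs the members that were called were low in the group where macrophage markers were high. Stem and progenitor markers ran with the members: 5 of 10 were called lower and 1 higher on the 430 arrays, with means per array of 7.14 to 7.17 at 24 h and 8.49 to 8.54 at 0 h, and 5 of 10 higher and 1 lower on the exon arrays, with 6.71 to 6.80 at the 24 h label and 5.66 to 5.85 at the 0 h label. Gfi1, Myb and Kit changed by -5.07, -3.05 and -2.37 on the 430 arrays and by 3.51, 2.6 and 2.08 on the exon arrays. Sox4 was called the other way on both designs (0.49 and -0.55). Neutrophil and granule markers did likewise, with 5 of 9 called lower and 2 higher on the 430 arrays (11.39 to 11.42 at 24 h, 12.38 to 12.42 at 0 h) and 6 of 10 higher and 1 lower on the exon arrays (9.67 to 9.83 at the 24 h label, 8.91 to 9.0 at the 0 h label). Camp, Ngp and Elane changed by -3.29, -2.59 and -1.88 on the 430 arrays and by 1.48, 2.98 and 1.28 on the exon arrays. Mpo was called the other way on both designs (0.9 and -1.06), and Ltf was called higher on the 430 arrays (0.36). S100a8 and S100a9 were called on neither design. Of mast cell and basophil markers 2 of 9 were called lower and 2 higher on the 430 arrays, near the shares over all genes. On the exon arrays 2 of 9 were called higher. Mcpt8 changed by -1.48 and 1.36, and Ms4a2 by -0.42 on the 430 arrays and, not called, by 0.54 on the exon arrays. Tpsb2 (0.34) and Mcpt4 (0.3) were called higher on the 430 arrays, where Cma1 (0.35, limma adjusted p = 0.0501) was not called. Erythroid and megakaryocyte markers (3 of 8 higher and 1 lower on the 430 arrays, 0 of 7 on the exon arrays) and lymphoid markers (1 of 8 lower, 0 of 7) stayed at means of 4.42 to 6.12 log2 units. For scale, medians per array were 5.78 to 5.87 on the 430 design and 5.39 to 5.42 on the exon design. The part of these markers in the members' changes was not tested.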

How the data were processed

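RNA from PUER cells was read on 12 arrays in 4 groups of 3. Per the labels' protocols, total RNA was extracted with a silica-column kit and labelled as sense-strand DNA, which is not the usual target of the 430 design, so that label is in doubt. The values are log2 signals that the authors deposited as 1 table per design, made with Affymetrix Expression Console per the submitters' processing notes, which name mm8 for the exon arrays; how probes were summarized is not stated there. They were used as deposited, and no level was compared between tables. Within a design, mean levels of features were compared only to pick the brightest feature of a gene and to filter dim features. Medians per array were 5.78 to 5.87 (430) and 5.39 to 5.42 (exon). Precision is limited by the number of arrays, 3 a group.

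After 64 control probe sets were set aside, 45037 probe sets and 23238 transcript clusters were tested with limma 3.58.1 in R 4.3.3 (lmFit, eBayes, two-sided, Benjamini-Hochberg over each design, threshold 0.05), 24 h minus 0 h. The script was tested on simulated arrays with the real features' spread and changes of known size. Of 100 features changed by 0.75 log2 units, 84% were recovered on the 430 design and 43% on the exon design. For changes of 1.5 log2 units the shares were 100% and 79%. Far fewer features were changed there than were called in the real data, so these shares do not carry over directly. Gene symbols came from the platform annotation, updated to RefSeq (GRCm38.p6): 34945 probe sets had 1 symbol (34754 matched), 932 several and 9160 none; of the exon clusters 14939 had 1 (14884 matched), 989 several and 7310 none. SEs are limma's moderated ones.

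The members and lists were chosen with earlier results of these data known. Of each list, up to 4 genes called on both designs with the largest mean size of change were named, and members called against most of their list where these were 3 or fewer, besides Spi1, Esr1 and up to 3 markers a list (erythroid and lymphoid markers are given by list only). Outside this rule, 7 further ATF4 targets were named after their values were seen. So were the markers Sox4, Mpo, Ltf, S100a8, S100a9, Tpsb2 and Mcpt4. Alternatives tried were exchanged exon labels, rescaled exon values, gene means, a minimum log2 change of 1, leaving out each array, replicate number as block, robust variances with an intensity trend, a filter on dim features, centring of array medians and quantile normalization. A promoter motif, TGGTGCAAT, was added after the sequences were seen. Offsets before logs did not apply.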

Additional observations from a re-analysis of the deposited data

Results flagged for a closer look

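The change (24 h minus 0 h) differed between the 2 array designs for the 9 members present on both when each was read by its brightest feature, by limma's test of the difference itself; with gene means Ddit3 was not called (0.35, adjusted p = 0.0695). With the labels as given, the 430 change minus the exon change was -1.12 for Atf4, 0.54 for Ddit3, -2.29 for Asns, -1.56 for Trib3, -2.91 for Psat1, -2.41 for Psph, -3.73 for Shmt1, -2.41 for Shmt2 and -2.94 for Mthfd2 (adjusted p between 3.88e-13 and 0.008). Of all 13356 shared genes 58.0% differ in this way. The designs' labels run against each other across these genes (Pearson r = -0.861). A gene that changes in opposite directions on the designs thus differs here whatever the sizes of its changes, and these differences say nothing particular of the members. With the exon labels exchanged, the difference was -0.51 for Ddit3, -0.38 for Psph and -0.65 for Shmt2 (adjusted p = 0.0308, 0.0262 and 0.00127), beside 22.8% of all shared genes.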

How the results depend on the processing

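The 9 members called lower on the 430 arrays stayed at 8 or 9 under the alternatives that require no minimum change, with Phgdh lost under quantile normalization (-0.19, adjusted p = 0.0784), and the 8 called higher on the exon arrays stayed at 8 except with the labels exchanged. Ddit3 on the 430 arrays turned sign, always uncalled, after array medians were removed (-0.05), with gene means (-0.18), without 0 h replicate 2 (-0.0086) and without 24 h replicate 1 (-0.0049), in a range of -0.0086 to 0.052 over the arrays left out. On the exon arrays 1 member, Ddit3, was called lower, against 0 as reported, without dim features (adjusted p = 0.0168), with the intensity trend (0.042) and after quantile normalization (0.0336); leaving out 1 array in turn gave 0 to 1, the 1 without 24 h replicate 3 (0.0236). Exchanging the exon labels turned the changes to -0.52 for Atf4, 0.53 for Ddit3, -1.20 for Asns, -0.83 for Trib3, -1.65 for Psat1, -1.02 for Psph, -1.75 for Shmt1, -0.88 for Shmt2 and -1.38 for Mthfd2, with 8 members called lower and 0 higher, and 2856 genes lower and 1606 higher. Requiring a log2 change of at least 1 left 985 genes lower and 790 higher of 4747 and 4736 on the 430 arrays, and 554 lower and 729 higher of 1606 and 2856 on the exon arrays, with 6 members called lower on the 430 arrays (Atf4, Trib3 and Phgdh were below that size) and 5 called higher on the exon arrays (Atf4, Trib3 and Shmt2 were below it). Quantile normalization moved the exon split to 2409 genes higher and 2092 lower. The difference between designs with exchanged exon labels turned sign for Atf4 (0.0039), Shmt1 (0.025) and Mthfd2 (0.015) after rescaling, and for Atf4 (0.31), Trib3 (-0.18), Shmt1 (0.22) and Mthfd2 (0.027) with gene means, of which Atf4 was called, and Psph was lost after rescaling (-0.23, adjusted p = 0.211). With the labels as given, Ddit3 was not called with gene means (0.35, adjusted p = 0.0695). Replicate numbers did not pair the arrays (same-number correlations of -0.0548 to 0.132 on the 430 and -0.0516 to 0.00878 on the exon arrays); with the replicate block 4640 genes were called lower and 4634 higher on the 430 arrays, 1169 lower and 2064 higher on the exon arrays, and Ddit3's difference with exchanged labels was lost (adjusted p = 0.0683). Leaving out 1 array in turn gave 4365 to 4529 genes lower and 3999 to 4446 higher on the 430 arrays, and 1175 to 1457 lower and 1992 to 2618 higher on the exon arrays. Of 378 recomputed counts for the wider lists 69 moved by over 1.5 times, 36 of them under exchanged labels or the minimum change. The cause of the other turns and losses was not tested. With 3 arrays a group, small changes of single genes are beyond what this design can settle.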
